A study of Mus musculus with 5 samples.

Results

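The integrins of macrophages are described here through the RNA of 10 subunits out of 24419 rows in the table. They were chosen by name, with earlier results of these data known. They are the beta 2 subunit Itgb2 with its alpha partners Itgam, Itgal and Itgax, the beta 1 subunit Itgb1 with Itga4, Itga5 and Itga6, and Itgav with Itgb5. The RNA came from bone marrow-derived macrophages (BMMs) of C57BL/6 mice, grown with 50 ng/ml M-CSF for 5 days and activated with 100 ng/ml LPS, so that every library carries the LPS stimulus. The activated cells were then kept for 18 hours with PBS (n = 2, titled as not treated) or with 100 ng/ml Semaphorin3G (Sema3G, n = 3), a secreted guidance protein used here as an Fc-tagged product of transfected 293T cells. The PBS control carried no Fc-tagged protein, so the response to Sema3G and to the tag cannot be told apart. Nothing in the labels says that the libraries came from separate mice or cultures, so the p-values measure only the spread between these libraries, which may be technical.

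Integrins are receptors in the cell membrane that pair an alpha chain with a beta chain and bind either the matrix or proteins on other cells. Talin and the kindlins bind the tail of the beta chain from inside and switch the receptor to its active shape, and bound integrins signal through kinases of the Src and Syk families to actin. In macrophages the beta 2 integrins serve in adhesion to endothelium and in the uptake of complement-coated particles, while beta 1 and alpha v integrins hold the cells to fibronectin, laminin and vitronectin.

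Total counts, recovered from the smallest step of the deposited CPM in each library, were between 1798469 and 2215855 UMIs. A UMI is a tag that counts each captured RNA 3′ end once. Of these totals, 1283029 to 1487137 UMIs fell on listed genes. The totals, and shares taken of them, assume that the CPM were scaled to the plain library total. Listed genes took 75.6% to 77.6% of the UMIs with PBS and 65.9% to 71.3% with Sema3G, and Rn45s, the ribosomal RNA precursor, took 1.01% to 3.19% and 6.31% to 7.88%. Both quantities moved with the group, so each estimate below was also computed on other scales. Sema3G replicates 2 and 3 were the most alike of all pairs of libraries (chi-square per degree of freedom 1.77, against 6.57 to 29.6 for the other pairs). Of the macrophage markers, Csf1r, the M-CSF receptor, stood at 3451 to 4976 CPM (UMIs scaled to a common library total), Lyz2, the lysozyme of myeloid cells, at 2527 to 4084 CPM and Cd14, an LPS co-receptor, at 649 to 1247 CPM. The summed macrophage markers lay at 10219 to 13039 CPM with PBS and at 9380 to 9847 CPM with Sema3G. Their median log2 fold change between Sema3G and PBS was -0.17, beside -0.22 over all tested genes on the same scale. In bulk RNA, fewer cells of a type and less RNA per cell cannot be told apart.

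The promoters of Itgam and Itgax are shown because these genes are neighbours on 1 strand and lay furthest apart in RNA level among the 10 subunits. In GENCODE M21 on GRCm38, the build called mm10 in the submitters' notes, Itgam lies at chr7:128062640-128118491 on the plus strand and Itgax at chr7:128129547-128150657 on the plus strand, with 11055 bp between them. Capitals mark GAGGAA, a core to which PU.1, a transcription factor of myeloid cells, can bind, or its reverse complement TTCCTC. The windows, from RefSeq on GRCm38.p6, run from 250 bases before to 50 bases after the start of the gene and read 5′ to 3′ along it, for Itgam at chr7:128062390-128062689 and for Itgax at chr7:128129300-128129599.
Itgam: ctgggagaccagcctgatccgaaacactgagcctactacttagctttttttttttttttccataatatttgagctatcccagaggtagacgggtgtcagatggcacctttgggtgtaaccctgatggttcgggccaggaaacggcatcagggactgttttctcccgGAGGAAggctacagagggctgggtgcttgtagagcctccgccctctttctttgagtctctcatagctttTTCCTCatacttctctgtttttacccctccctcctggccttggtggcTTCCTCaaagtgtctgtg
Itgax: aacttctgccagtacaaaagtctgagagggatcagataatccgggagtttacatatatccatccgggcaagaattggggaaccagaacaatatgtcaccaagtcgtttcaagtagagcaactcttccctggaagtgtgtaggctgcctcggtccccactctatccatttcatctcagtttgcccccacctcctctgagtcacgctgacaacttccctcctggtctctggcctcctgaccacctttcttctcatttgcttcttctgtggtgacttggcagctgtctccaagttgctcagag
The Itgam window held the motif at 84 and 15 bases before the start and at position 33 after it, and the Itgax window held none. Of 32851 promoters of the same length, 28.3% held the motif on either strand and 0.685% held it at least 3 times. The promoters of 7 of the 10 subunits matched (not those of Itgal, Itgb2 and Itga6). Of these 7, 4 held the motif, since Itgav had it 218 and 7 bases before its start, Itga5 at 127 and Itgb1 at 9, while Itgax, Itga4 and Itgb5 had none. A match of these letters is a description, not a site at which PU.1 was shown to bind.

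None of the 10 subunits passed the test between Sema3G and PBS, which was limma on log2(CPM + 1) with a threshold of 0.05 on the Benjamini-Hochberg adjusted p. Their adjusted p values ran from 0.183 to 0.989, and 1 of them, Itgal, had an unadjusted p under 0.05. Over the table, 182 of 10088 genes tested passed (1.80%), with 160 higher (1.59%) and 22 lower (0.218%), so 0 calls among 10 genes is close to that background. The unadjusted p was under 0.05 for 689 genes with higher (6.83%) and 1436 with lower values (14.2%). The 2 groups did not overlap for 3 subunits. Itgam was higher with Sema3G, against 11.9% of all tested genes, and Itgav and Itgax were lower, against 26.5% of all tested genes. The median log2 fold change of the 10 was -0.18, beside -0.22 over all tested genes on the same scale, with 5 subunits above that median and 5 below it. Fold changes on log2(CPM + 1) understate those of low genes such as Itgax and Itga5.

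**Figure D1:**
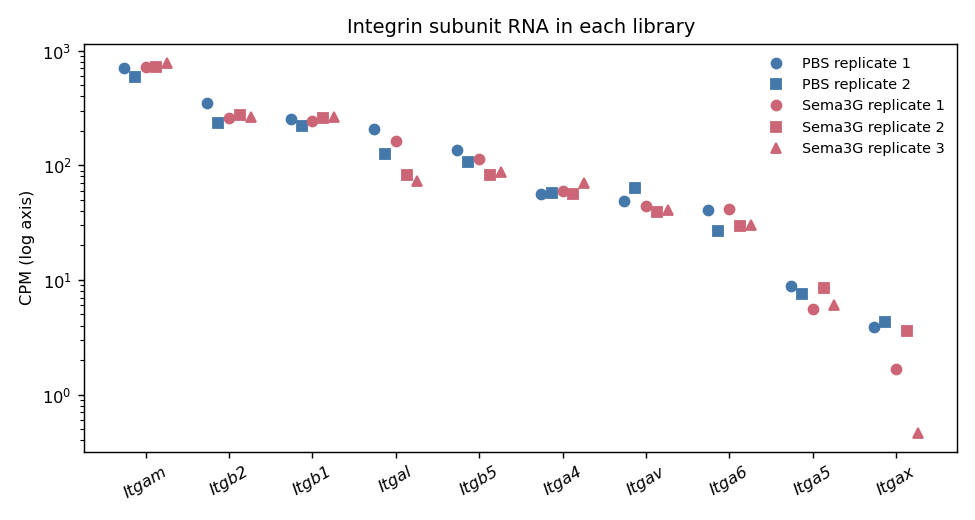
CPM of each integrin subunit (log axis) in each library, with PBS in blue and Sema3G in red and 1 point per library. The subunits span from Itgam at 593 to 788 CPM to Itgax at 0.461 to 4.28 CPM, and the groups separate for Itgam, Itgav and Itgax.

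The subunits differed far more in level from one another than between the groups. Each UMI marks an RNA end, so the levels of different genes were compared without dividing by transcript length. Itgam was first in all 5 libraries, with 2.01 to 2.99 times as many UMIs as Itgb2. Itgb2 was above Itgb1 in 5 of 5 libraries, but by ratios of only 1.002 to 1.381, and Itgb1 was above Itgal by 1.22 to 3.59. The order of Itgal and Itgb5 was not fixed, with Itgal above in 4 of 5 libraries and ratios of 0.833 to 1.52. Itga4 and Itgav also changed places, with Itga4 above in 4 of 5 libraries and ratios of 0.898 to 1.70. Itgav lay above Itga6 by 1.05 to 2.36, a gap that was small in its lowest library. Itga6 was 3.42 to 7.5 times Itga5, and Itga5 was 1.75 to 13 times Itgax.

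Itgam encodes CD11b, the alpha M chain that forms Mac-1 (complement receptor 3) with CD18 and binds iC3b, fibrinogen and ICAM-1. It was measured at 703 and 593 CPM with PBS and at 721, 726 and 788 CPM with Sema3G, from 1107 to 1709 UMIs per library. All 3 Sema3G libraries lay above both PBS libraries, but the gap from the highest PBS library to the lowest Sema3G library was small beside the spread of the PBS pair. The group means were 648 ± 78.2 CPM (SD, n = 2) and 745 ± 37.1 CPM (SD, n = 3), a log2 fold change of 0.21 (standard error 0.20, 95% interval -0.20 to 0.62, limma adjusted p = 0.552). The interval corresponds to folds of 0.868 to 1.53. The estimate kept its sign under 16 of 16 alternatives, where it ran from 0.08 to 0.50 with limma, edgeR and DESeq2 adjusted p values of 0.133 to 0.858. Without PBS replicate 2 it was 0.08 and without PBS replicate 1 it was 0.33. It rested on the scaling, since with the CPM rescaled by TMM factors it was 0.41 (95% interval 0.05 to 0.77, limma adjusted p = 0.244). Itgam shares up to 210 bp of exon with Gm49368, a gene model on the same strand with no row in the table, so its count may hold reads of that model.

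Itgb2 encodes CD18, the beta chain common to the leukocyte integrins, whose loss causes leukocyte adhesion deficiency. It was at 351 and 232 CPM with PBS and at 259, 276 and 264 CPM with Sema3G, from 434 to 638 UMIs per library. The Sema3G libraries were close together and lay between the PBS libraries, which differed 1.51-fold (95% interval 1.33 to 1.71 from counting error). The means were 291 ± 83.6 CPM (SD, n = 2) and 266 ± 8.84 CPM (SD, n = 3), with a log2 fold change of -0.10 (standard error 0.20, 95% interval -0.52 to 0.32, limma adjusted p = 0.796). The sign of this estimate turned when the CPM were rescaled by TMM factors (0.11), and also without PBS replicate 1 (0.20).

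Itgal encodes CD11a, the alpha L chain of LFA-1, a receptor for the ICAM proteins. Its values were 208 and 125 CPM with PBS and 164, 83.0 and 73.3 CPM with Sema3G, from 159 to 378 UMIs per library. Sema3G replicate 1 lay between the PBS libraries and Sema3G replicates 2 and 3 lay below both, so the groups overlapped. The highest PBS value was 1.66 times the lowest (95% interval 1.40 to 1.96 from counting error) and the highest Sema3G value was 2.24 times the lowest. The means were 166 ± 58.3 CPM (SD, n = 2) and 107 ± 49.8 CPM (SD, n = 3), a log2 fold change of -0.68 (standard error 0.28, 95% interval -1.28 to -0.09, unadjusted p = 0.0256 and adjusted p = 0.183, both from limma). Without Sema3G replicate 1 the log2 fold change was -1.04 and passed (limma adjusted p = 0.0169), in a fit in which 5.49% of all tested genes were called lower. Without PBS replicate 1 it was -0.32, and without PBS replicate 2 it was -1.05 (limma adjusted p = 0.0809). With TMM factors the estimate was -0.48, with a 95% interval of -1.03 to 0.07 that includes 0, and with CPM over listed genes without Rn45s it was -0.40. Replicate 1 was the highest library in each group, and with the replicate number as a block the estimate was -0.46 (limma adjusted p = 0.0976). Over the 16 alternatives the adjusted p ranged from 0.0169 to 0.650.

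Itgax encodes CD11c, the alpha X chain of complement receptor 4, which is widely used as a marker of mouse dendritic cells and of some tissue macrophages. It had 7 and 8 UMIs with PBS and 3, 8 and 1 UMIs with Sema3G, or 3.85 and 4.28 CPM against 1.67, 3.61 and 0.461 CPM. The 3 Sema3G values lay below both PBS values, but 1 of them, replicate 2, had as many UMIs as PBS replicate 2 and was lower only in CPM. The log2 fold change was -0.95 (standard error 0.53, 95% interval -2.07 to 0.17, limma adjusted p = 0.312), and with 27 UMIs over all 5 libraries the interval holds both no difference and a 2-fold lower level. Leaving out 1 library moved the estimate to -0.53 without Sema3G replicate 3 and to -1.36 without Sema3G replicate 2. With a pseudocount of 0.1 or 5 CPM in place of 1 it was -1.43 or -0.42. A count of 3 UMIs, the upper limit that a count of 0 allows, is 1.35 to 1.67 CPM here. The ratio of the mean CPM of Itgam to that of its neighbour Itgax was 255, and per library the ratio of UMIs ran from 138 to 1709.

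Of the dendritic cell markers, Flt3, Xcr1, Cd209a and Siglech had 0 UMIs in every library, and the summed list was at 5.35 to 5.49 CPM with PBS and at 2.30 to 7.23 CPM with Sema3G. Its most abundant genes were Clec10a, a lectin, at 1.07 to 3.85 CPM and Batf3, a transcription factor of cross-presenting dendritic cells, at 0.461 to 2.14 CPM.

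Itgb1 encodes CD29, the beta 1 chain that pairs with most matrix-binding alpha chains. It was at 254 and 222 CPM with PBS and at 246, 257 and 263 CPM with Sema3G, with 414 to 571 UMIs per library. The groups overlapped, and their means of 238 ± 22.8 CPM (SD, n = 2) and 255 ± 8.83 CPM (SD, n = 3) gave a log2 fold change of 0.10 (standard error 0.18, 95% interval -0.27 to 0.48, limma adjusted p = 0.758). Without PBS replicate 2 the estimate was 0.0075, without PBS replicate 1 it was 0.20, and with TMM factors 0.31. The interval on the deposited CPM contains no fold as large as 2 in either direction, which held for 7 of the 10 subunits (all but Itgal, Itga5 and Itgax).

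Itga4 encodes CD49d, which with beta 1 forms VLA-4, a receptor for VCAM-1 and fibronectin. It was at 56.0 and 56.7 CPM with PBS and at 60.1, 56.4 and 69.6 CPM with Sema3G, from 102 to 151 UMIs per library. The PBS libraries were nearly equal, and 1 Sema3G library lay between them. The log2 fold change was 0.13 (standard error 0.20, 95% interval -0.29 to 0.55, limma adjusted p = 0.733). It was 0.045 without Sema3G replicate 3 and 0.33 with TMM factors. Itga4 shares up to 905 bp of exon with Cerkl on the other strand, but Cerkl had 0 UMIs in every library.

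Itga6 encodes CD49f, the alpha chain of a laminin receptor. It was at 40.7 and 26.8 CPM with PBS and at 41.7, 29.3 and 29.96 CPM with Sema3G, with 50 to 75 UMIs per library. In each group, replicate 1 was the highest. The group means of 33.7 ± 9.82 CPM (SD, n = 2) and 33.7 ± 6.97 CPM (SD, n = 3) were almost the same, with a log2 fold change of 0.01 (standard error 0.25, 95% interval -0.52 to 0.54, limma adjusted p = 0.989) whose sign turned under other settings.

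Itga5 encodes CD49e, the alpha chain of the classical fibronectin receptor. It was low, with 16 and 14 UMIs with PBS and 10, 19 and 13 UMIs with Sema3G, or 8.79 and 7.49 CPM against 5.56, 8.57 and 5.99 CPM. Sema3G replicate 2 lay between the PBS libraries and the other Sema3G libraries lay below them. The log2 fold change was -0.26 (standard error 0.37, 95% interval -1.04 to 0.51, limma adjusted p = 0.702), and it ran from -0.43 without Sema3G replicate 2 to -0.16 without PBS replicate 1 or Sema3G replicate 1. On other scales it was nearer to 0, at -0.08 with TMM factors and -0.0070 with CPM over listed genes without Rn45s.

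Itgav encodes CD51, the alpha v chain, which pairs with several beta chains and recognises vitronectin and other ligands with an RGD sequence. It was at 48.9 and 63.2 CPM with PBS and at 43.9, 38.8 and 41.0 CPM with Sema3G, from 79 to 118 UMIs per library. Every Sema3G value was under both PBS values, and the means were 56.0 ± 10.1 CPM (SD, n = 2) and 41.3 ± 2.57 CPM (SD, n = 3). The log2 fold change was -0.42 (standard error 0.21, 95% interval -0.87 to 0.03, limma adjusted p = 0.266). Without PBS replicate 2 it was -0.24, and with TMM factors it was -0.22. Itgav shares up to 634 bp of exon with Gm13684 on the other strand, which has no row in the table.

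Itgb5 encodes the beta 5 chain, which forms a vitronectin receptor with alpha v that also serves in the uptake of dying cells. It was at 137 and 106 CPM with PBS and at 114, 81.7 and 88.0 CPM with Sema3G, from 181 to 249 UMIs per library. Sema3G replicate 1 lay between the PBS libraries and the other Sema3G libraries lay below both. The means were 121 ± 21.8 CPM (SD, n = 2) and 94.6 ± 17.1 CPM (SD, n = 3), with a log2 fold change of -0.36 (standard error 0.20, 95% interval -0.79 to 0.07, limma adjusted p = 0.315). It was -0.18 without PBS replicate 1, -0.54 without PBS replicate 2 and -0.16 with TMM factors.

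**Figure D2:**
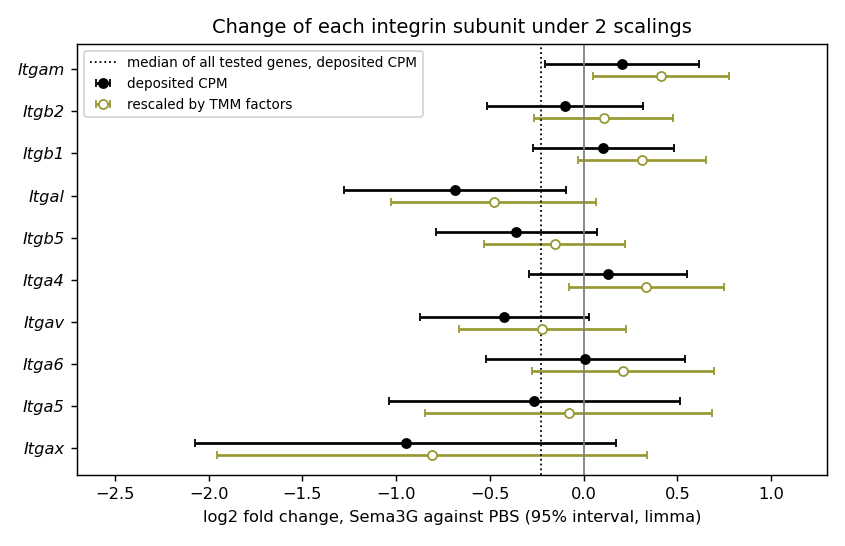
Log2 fold change of each subunit with Sema3G against PBS from limma, with 95% intervals, on the deposited CPM (black) and with the CPM rescaled by TMM factors (open circles), where the dotted line marks the median of all tested genes, -0.22. The rescaling moves most estimates to the right, the estimate of Itgb2 moves from -0.10 to 0.11, and none of the subunits passed on either scale.

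The PBS libraries differed beyond counting error for 6 of the 10 subunits, and Sema3G replicates 2 and 3 for 2, Itgam and Itgax. Over the whole table, too, the PBS pair differed beyond sampling noise (chi-square 11.4 per degree of freedom). Part of each fold change depended on the common scale, since the median of all tested genes was -0.22 on the deposited CPM, -0.04 with TMM factors and 0.04 with CPM taken over listed genes without Rn45s. Relative to the median of all tested genes on the deposited scale, the highest estimates were those of Itgam (0.43 above it), Itga4 (0.35) and Itgb1 (0.33), and the lowest those of Itgax (-0.72) and Itgal (-0.46).

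Alpha and beta chains are needed in pairs, so ratios of their UMIs were taken within each library, where the scale cancels. With 2 libraries against 3, the smallest 2-sided p of the exact permutation test, taken as 2 times the smaller 1-sided p, is 0.2, so none of the 8 pairs compared could pass, and the lowest Benjamini-Hochberg adjusted p was 0.533. Itgam had 2.01 and 2.55 UMIs per Itgb2 UMI with PBS and 2.78, 2.63 and 2.99 with Sema3G. All 3 Sema3G ratios were the higher ones, with a log2 difference of 0.31 (exact permutation p = 0.2), which was 0.13 when PBS replicate 1 was left out and 0.48 when PBS replicate 2 was. Itgal to Itgb2 was 0.592 and 0.539 with PBS and 0.633, 0.301 and 0.278 with Sema3G. Sema3G replicate 1 was thus above the PBS pair and the others below it (log2 difference -0.59, exact permutation p = 0.6). The difference was -0.97 without Sema3G replicate 1 and -0.37 without Sema3G replicate 3. The ratio of Itgax to Itgb2 was below 0.02 in every library, at 0.00175 to 0.0184.

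Among the partners of Itgb1, the Itgav ratio was 0.193 and 0.285 with PBS and 0.179, 0.151 and 0.156 with Sema3G, lower in 3 of 3 Sema3G libraries (log2 difference -0.54, exact permutation p = 0.2). Leaving out PBS replicate 1 gave -0.82 and leaving out PBS replicate 2 gave -0.25. The Itga5 ratio was 0.0346 and 0.0338 against 0.0226, 0.0334 and 0.0228, also lower in 3 of 3, though from 10 to 19 UMIs of Itga5 per library (log2 difference -0.41, exact permutation p = 0.2). Itga4 to Itgb1 lay at 0.220 to 0.264 in all libraries and had the narrowest relative range of the 8 ratios. Itga6 to Itgb1 lay at 0.114 to 0.170 and Itgav to Itgb5 at 0.357 to 0.596, and the groups overlapped for both.

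**Figure D3:**
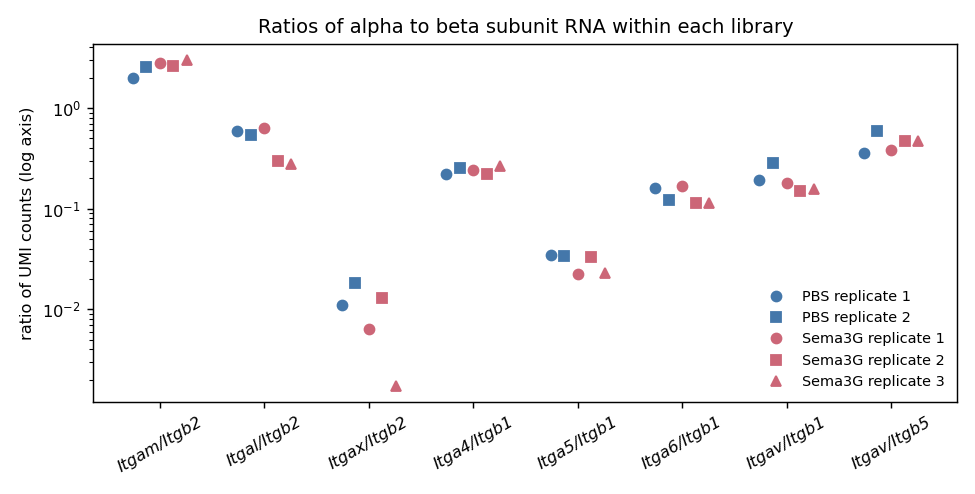
Ratio of the UMIs of an alpha chain to those of its beta chain (log axis) within each library, 1 point per library, PBS in blue and Sema3G in red. The ratios span from Itgam to Itgb2 at 2.01 to 2.99 down to Itgax to Itgb2 at 0.00175 to 0.0184, and the groups separate for Itgam to Itgb2, Itga5 to Itgb1 and Itgav to Itgb1.

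The ratio of Itgam to Itgal, chosen after the values were seen, was 3.39 and 4.73 with PBS and 4.40, 8.74 and 10.7 with Sema3G. Sema3G replicate 1 lay within the PBS range, and the log2 difference of 0.90 had an exact permutation p of 0.4. Leaving out any 1 library gave 0.63 to 1.28.

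The 10 subunits held 94.8% to 96.9% of all UMIs on 27 integrin subunits, of which there were 2831 to 3681 per library. Itgam alone took 37.6% and 39.1% with PBS and 42.1%, 44.6% and 46.4% with Sema3G. The groups did not overlap for the shares of 3 of the 10 subunits, with Itgam higher in the Sema3G libraries and Itgb5 (7.32% and 6.99% against 6.65%, 5.02% and 5.19%) and Itgav (2.62% and 4.17% against 2.56%, 2.39% and 2.42%) lower. On the CPM scale 11.9% of all tested genes did not overlap and were higher and 26.5% did not overlap and were lower. No such background was computed for shares, so whether 3 of 10 is apart from it cannot be decided. Itgal took 11.1% and 8.27% with PBS and 9.57%, 5.10% and 4.32% with Sema3G. The beta 2 integrins together (Itgam, Itgal, Itgax and Itgb2) took 67.7% and 63.0% with PBS and 66.8%, 66.9% and 66.3% with Sema3G, so their common share in the Sema3G libraries lay inside the PBS range. Within the 3 beta 2 alpha chains, Itgam made up 76.9% and 82.1% with PBS and 81.3%, 89.3% and 91.4% with Sema3G, with Sema3G replicate 1 again inside the PBS range. These shares are descriptions and were not tested.

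**Figure D4:**
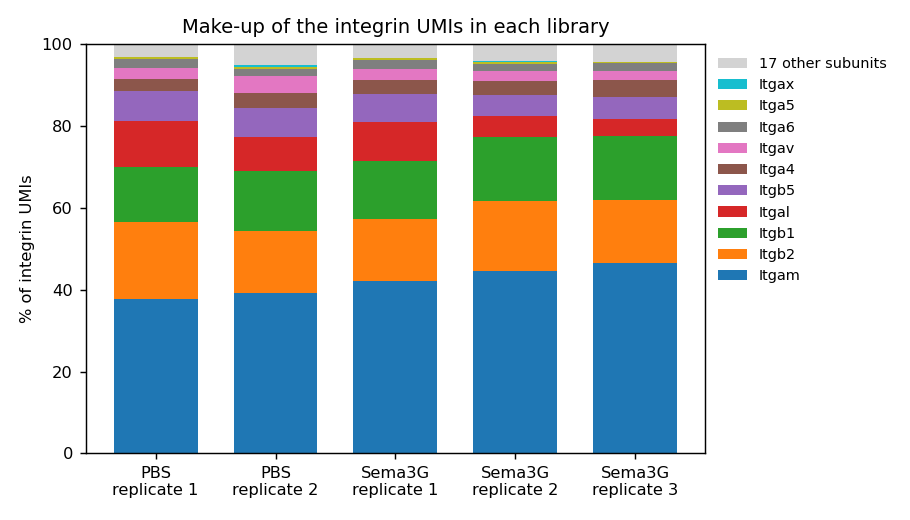
Share of the UMIs on 27 integrin subunits (%, stacked to 100) taken by each of the 10 subunits and by the 17 others, with 1 bar per library. Itgam is the largest segment in every library, at 37.6% to 46.4%, and the 17 others form the thin grey top.

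Of the 17 other integrin subunits, 4 were tested and none passed, 5 had 0 UMIs in every library (Itga2, Itgae, Itgb2l, Itgb4 and Itgb6), and the median log2 fold change of the 4 tested was 0.18. Itgb7, the partner of Itga4 in the gut-homing integrin, was at 24.7 and 50.3 CPM with PBS and at 24.5, 28.0 and 31.8 CPM with Sema3G (log2 fold change -0.33, limma adjusted p = 0.497). Itga1, which forms a collagen receptor with Itgb1, was at 6.59 and 15.0 CPM with PBS and at 10.01, 21.2 and 26.7 CPM with Sema3G (log2 fold change 0.78, limma adjusted p = 0.261). Itga9, a chain that also pairs with Itgb1, was at 21.4 and 10.7 CPM with PBS and at 21.1, 13.5 and 11.5 CPM with Sema3G. For each of these the groups overlapped.

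The genes around the integrins were read as 5 lists of 121 genes, these other subunits included. Of the 82 genes tested, 0 passed in either direction, where the table had 1.59% called higher and 0.218% lower. The unadjusted p was under 0.05 for 1 gene with a higher and 14 with a lower value, beside 6.83% and 14.2% of all tested genes. Their estimates were positive for 13 and negative for 69 (beside 67.5% negative over all tested genes), with a median of -0.34 beside -0.22 for all tested genes.

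Of the genes for integrin activation and actin linkage, 24 of 30 were tested, and 7 had an unadjusted p under 0.05, all lower, beside 14.2% of all tested genes. Tln1, which encodes talin 1, was at 405 ± 7.52 CPM with PBS (SD, n = 2) and at 337 ± 5.31 CPM with Sema3G (SD, n = 3), with no overlap of the groups (log2 fold change -0.27, limma adjusted p = 0.396). Fermt3, the kindlin of blood cells, was at 342 and 335 CPM with PBS and at 285, 218 and 183 CPM with Sema3G (log2 fold change -0.59, limma adjusted p = 0.127), and Vasp, a promoter of actin filament growth, was at 409 and 433 CPM against 366, 279 and 267 CPM (log2 fold change -0.48, limma adjusted p = 0.174). For all 3 the Sema3G libraries lay below both PBS libraries, as they did for 12 of the 24 tested genes, beside 26.5% of all genes, and the median of the list was -0.35. Without Sema3G replicate 1, where 5.49% of all tested genes were called lower, Fermt3 and Vasp passed (limma adjusted p = 0.0181 and limma adjusted p = 0.0321). Pxn and Flna of this list, named after their values were seen, were also called lower there (limma adjusted p = 0.0152 and limma adjusted p = 0.0498).

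Of the genes for integrin signalling, 23 of 24 were tested, the unadjusted p was under 0.05 for 1 with a higher value and 3 with a lower one (beside 6.83% and 14.2% of all tested genes), and the median was -0.34. Fyb, an adaptor that couples receptors to integrin activation, was at 1319 ± 43.7 CPM with PBS (SD, n = 2) and at 1590 ± 25.5 CPM with Sema3G (SD, n = 3), higher in 3 of 3 libraries (log2 fold change 0.27, limma adjusted p = 0.472). Lyn, a Src family kinase, had a log2 fold change of -0.06 (with limma adjusted p = 0.873), and Syk, the kinase that relays beta 2 integrin signals, one of -0.34 (limma adjusted p = 0.278). Vav3, with the highest estimate of the 82 genes, was chosen after its values were seen. This guanine nucleotide exchange factor was at 26.9 and 20.9 CPM with PBS and at 29.5, 44.7 and 58.1 CPM with Sema3G (log2 fold change 0.82, limma adjusted p = 0.118). Sema3G replicate 1 was the nearest of the Sema3G libraries to the PBS values, and without it Vav3 passed (limma adjusted p = 0.0191).

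Of the ligands of integrins, 13 of 32 were tested, with a median of -0.48 and 2 lower at an unadjusted p under 0.05 (beside 14.2% of all tested genes). Thbs1, the matrix protein thrombospondin 1, was at 820 ± 255 CPM with PBS (SD, n = 2) and at 979 ± 307 CPM with Sema3G (SD, n = 3), a log2 fold change of 0.24 (with limma adjusted p = 0.620). C3, whose fragment iC3b is bound by Mac-1, was at 391 and 594 CPM with PBS and at 311, 379 and 335 CPM with Sema3G, lower in 3 of 3 libraries (log2 fold change -0.50, limma adjusted p = 0.184). Mfge8, which bridges dying cells to alpha v integrins, had a log2 fold change of -0.27 (with limma adjusted p = 0.519).

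All 18 membrane partners of integrins were tested, 17 with a negative estimate (beside 67.5% of all tested genes), and their median was -0.34. The unadjusted p was under 0.05 for 2 of them, both lower, beside 14.2% of all tested genes. Lgals3, the lectin galectin 3, was at 1985 ± 389 CPM with PBS (SD, n = 2) and at 1504 ± 172 CPM with Sema3G (SD, n = 3), a log2 fold change of -0.39 (with limma adjusted p = 0.340). Cd63, a tetraspanin, had a log2 fold change of -0.12 (with limma adjusted p = 0.794). Adam8, a surface protease of leukocytes, was at 572 and 472 CPM with PBS and at 406, 399 and 359 CPM with Sema3G, lower in 3 of 3 libraries (log2 fold change -0.42, limma adjusted p = 0.211).

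**Figure D5:**
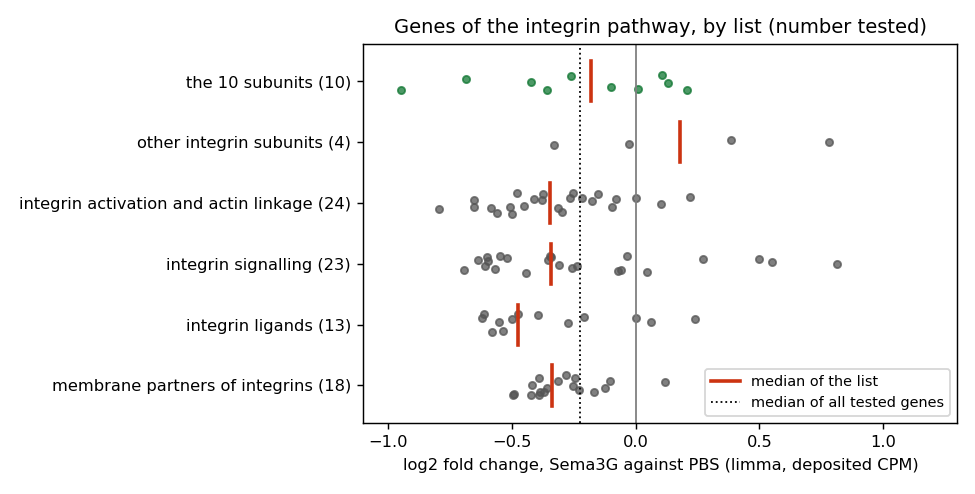
Log2 fold change with Sema3G against PBS of each tested gene (limma, deposited CPM), by list, with the median of each list as a red bar and the median of all tested genes, -0.22, as a dotted line. The 10 subunits (green) have a median of -0.18, while the medians of the activation, signalling, ligand and membrane partner lists lie between -0.48 and -0.34.

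Markers of other cell types that carry integrins were looked up beside the subunits. Of the neutrophil markers, Elane, Ngp, Cxcr2 and Retnlg had 0 UMIs in every library. S100a8 (102 to 165 CPM) and Csf3r (62.3 to 104 CPM), which activated macrophages also express, made up most of a sum of 200 to 273 CPM with PBS and 174 to 195 CPM with Sema3G, with S100a9 at 1.07 to 1.84 CPM. Of the lymphoid markers 7 of 11 were at 0 in every library and the sum was 3.30 to 8.03 CPM with PBS and 0.461 to 8.34 CPM with Sema3G, of which Cd2 and Cd79b were the most abundant. Among mast cell and basophil markers the sum was at most 0.556 CPM. The megakaryocyte and platelet markers summed to 4123 to 4639 CPM with PBS and 2972 to 3881 CPM with Sema3G, nearly all of it Pf4 (2959 to 4619 CPM), which macrophages also express, with Ppbp at 8.34 to 25.8 CPM and Treml1 at 3.16 to 6.59 CPM. The stromal and endothelial markers summed to 34.8 to 74.2 CPM with PBS and 27.1 to 56.2 CPM with Sema3G, led by Pecam1, Acta2 and Col1a2. None of these marker genes passed the test, and their part in the values of the integrin genes was not tested.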

How the data were processed

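RNA of 5 samples was made into libraries of RNA 3′ ends with UMIs. After mapping to mm10 and UMI counting in Strand NGS, the authors normalized with edgeR (3.12 in the submitters' processing notes) and deposited CPM, counts scaled to a common library total. The gene annotation and the mapper settings were not given in the sources used here. A ranking, p-values and q-values from a comparison by the authors were also deposited and were not used. Dividing the deposited CPM by the smallest step of each library gave UMI counts (100% of values whole within 0.01). Of 24419 rows, 11627 were at 0 in all samples, 27 symbols had been turned into dates and 4 rows repeated a symbol. All columns of sample values were used.

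Groups follow the labelled treatment. The main test was limma (3.58.1) in R (4.3.3), on log2(CPM + 1) with the trend option, over the 10088 genes whose mean reached 1 CPM, and the Benjamini-Hochberg adjustment covered all of these. The plan named this test for normalized values. Ratios were compared by exact 2-sided permutation tests over libraries. edgeR's quasi-likelihood test (4.0.16) and DESeq2 (1.42.0) on the recovered counts, limma-voom, other pseudocounts (0.1 and 5), filters, scalings, a replicate block and leaving out each library were alternatives. The scripts were tested on simulated data. Intervals from counts and the floor of 3 counts cover counting error only.

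Sema3G replicates 2 and 3 differed beyond sampling noise and were kept as separate samples. The replicate numbers are shared by 2 pairs, and the labels do not say that a number marks a shared mouse or culture. Named are all 10 subunits and, of each list, the genes past the adjusted p and the 3 tested genes with the highest mean CPM. Marker genes and integrin subunits at 0 UMIs, Vav3, Ptk2b, Pxn and Flna were named after their values were seen. The subunits, lists and tests were chosen with earlier results of these data known. Gene models came from GENCODE M21 and promoters from RefSeq. A further result is left out of this account.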

Additional observations from a re-analysis of the deposited data

How the results depend on the processing

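Over 16 alternatives the 10 subunits gave 159 values. Of these, 149 kept their direction and did not pass, 9 turned sign and 1 became significant (Itgal without Sema3G replicate 1, -1.04). The 149 include the DESeq2 values of Itga5 and Itgax, which had no adjusted p. In 15 of the 16 fits no subunit was called, and leaving out 1 library gave 0 to 1. The log2 fold change of Itgb2 was 0.11 with TMM-rescaled CPM, 0.19 with CPM over listed genes other than Rn45s, 0.094 in edgeR's quasi-likelihood test with TMM, 0.10 in DESeq2 and 0.11 in limma-voom, and -0.40 to 0.20 with 1 library left out. That of Itga6 was -0.0087 in the quasi-likelihood test with library size only and -0.28 to 0.30 with 1 library left out. Log2 ratio differences turned sign with 1 library left out for Itga4 to Itgb1 (-0.081 to 0.13), Itga6 to Itgb1 (-0.30 to 0.11) and Itgav to Itgb5 (-0.44 to 0.30).

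The 182 genes called over the table became 108 with no filter, 328 with TMM-rescaled CPM (325 higher, 3 lower), 495 with CPM over listed genes other than Rn45s (493 higher, 2 lower), 304 in the quasi-likelihood test with TMM, and 26 to 856 with 1 library left out (26 without Sema3G replicate 2, 28 without Sema3G replicate 3, 92 without PBS replicate 1, 856 without Sema3G replicate 1, 303 higher and 553 lower). Of the listed pathway genes, 0 were called, but 1 in CPM over listed genes other than Rn45s (Vav3), 1 in DESeq2 (Vav3) and 0 to 9 with 1 library left out (9 without Sema3G replicate 1, 1 without PBS replicate 2). The replicate block called 573 genes (298 higher, 275 lower), 1 of the pathway genes (Ptk2b) and 0 of the 10 subunits, and it changed no other call among these. The deviations of same-numbered libraries from their group means correlated with r = 0.173 and r = 0.111. With 2 PBS libraries, the deviations of the 2 are exact opposites, so these values cannot decide whether the numbers mark a pairing. The replicate block fit rests on replicates 1 and 2 alone. The cause was not tested for any of these changes. Where PBS is left with 1 library, it is assumed to vary like the other group. Itgax has no value under the filter at a mean of 5 CPM, and DESeq2 gave no adjusted p for Itga5 and Itgax. Depth limits Itgax and Itga5 most, with 1 to 19 UMIs per library. No result could be screened for an outlying library, since the groups hold 2 and 3.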
